A study of Rattus norvegicus with 6 samples.

Results

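The vascular smooth muscle cells (VSMCs) described here were the arteriolar cells of the rat brain cortex, and their members were chosen by the sample label alone: the 3 samples labelled VSMC among the 6 samples of the series. The cells came from male Sprague-Dawley rats aged 4 to 5 weeks, with no engineered allele, drug or disease model stated for either cell type. Per the study's methods, the cortices of several rats were pooled for each of 3 isolations, arteriole fragments were held back on a filter and dissociated with enzymes, and the cells were sorted with magnetic beads. Cells bearing CD31 or CD11b were first removed, and cells that bound the lectin GSA-FITC were then kept. The lectin was used as a label of mural cells in general, so pericytes that sheathe the first branches of the arteriole could also have been kept. Polyadenylated RNA was sequenced by RNA-Seq. The table used here lists 14607 genes, all of which were used, and gives for each gene only the authors' mean over the VSMC samples. No value per sample could be given, no spread between samples was known, and no test was made on any value below.

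Arteriolar smooth muscle forms the contractile coat of the vessels that feed the brain. Calcium that enters through voltage-gated channels, or leaves the internal store, binds calmodulin and activates myosin light chain kinase, and phosphorylated smooth muscle myosin then pulls on filaments of smooth muscle actin. Relaxation depends on myosin phosphatase, on pumps that return calcium to the store, and on potassium channels that lower the membrane potential. Transmitters and local hormones act on the cells through receptors coupled to G proteins.

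The 5 defining genes of the cell type stood high in its own abundance order. Levels are in TPM, the transcript abundance scaled for transcript length and for the total of the library, which allows genes to be compared. Tagln (ENSRNOG00000017628), encoding transgelin, an actin-binding protein of smooth muscle, was the most abundant of all listed genes at 19824 TPM. Acta2 (ENSRNOG00000058039), the smooth muscle alpha actin, was second at 17233 TPM. Myh11 (ENSRNOG00000057880), the smooth muscle myosin heavy chain, was at rank 17 with 5085 TPM. Des (ENSRNOG00000019810), the muscle intermediate filament protein desmin, was at rank 59 with 1841 TPM. Cnn1 (ENSRNOG00000027736), encoding the thin filament protein calponin, was the lowest of the 5 at 422 TPM and rank 369. The data thus carried the label's marker set in full, and these 5 genes alone made up 4.45% of the listed TPM.

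**Figure D1:**
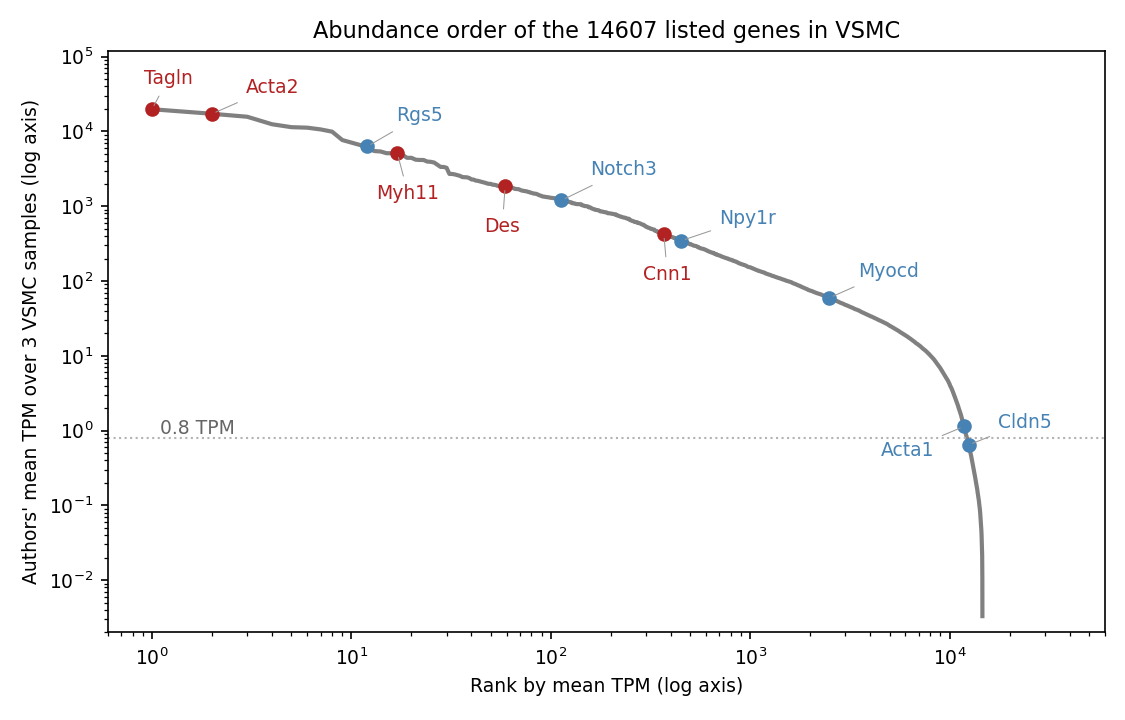
Each of the 14607 listed genes is placed by its rank (x, log axis) and by the authors' mean TPM over the 3 VSMC samples (y, log axis), with no error bars because the values are means only. The red points are the 5 smooth muscle markers, from Tagln at rank 1 to Cnn1 at rank 369, and the blue points are other genes named in the text.

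The profile was concentrated in few genes. The 10 most abundant genes held 12.4% of the listed TPM, the 100 most abundant held 34.0%, and the 500 most abundant held 58.8%, and 287 genes were enough to reach 50%. At the other end, 12218 genes (83.6%) were at or above 0.8 TPM, 8028 (55.0%) at or above 10 TPM, 1537 (10.5%) at or above 100 TPM and 151 at or above 1000 TPM. The median gene was at 12.7 TPM, which serves as the yardstick for the gene lists below.

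Among the 30 most abundant genes, the contractile and cytoskeletal genes were Tagln, Acta2, Myl9 (11235 TPM), Myl6 (7675 TPM), Actb (5472 TPM), Myh11, Tpm2 (4878 TPM), Tpm1 (4157 TPM), Csrp1 (3925 TPM) and Vim (3356 TPM). Myl9 and Myl6 encode the regulatory and essential light chains of smooth muscle myosin, and Csrp1 a LIM protein of smooth muscle. Crip1, which encodes another small LIM protein, was at rank 8 with 9933 TPM. Rgs5, a regulator of G protein signalling and a common marker of mural cells, was at rank 12 with 6298 TPM. Secreted and matrix proteins in the same range were Sparcl1 (5398 TPM), Mgp (4440 TPM, rank 20), the inhibitor of calcification in the vessel wall, and Igfbp7 (3960 TPM, rank 24). Fos (4441 TPM) and Zfp36 (4153 TPM), both immediate-early genes, and the housekeeping gene Eef1a1 (3350 TPM) were in the list together with Rps29 (3587 TPM), Hba-a1 (3838 TPM) and 8 mitochondrial genes. The entry AABR07029741.1 (4191 TPM, rank 21) had no established gene name.

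Sorting every gene into classes by its symbol and description placed the contractile and actin cytoskeleton genes first among 24 named classes. Their 111 listed genes held 10.9% of the listed TPM, and 41 of them were among the 500 most abundant. Cytosolic ribosomal proteins followed with 9.33% from 173 genes, and the 13 mitochondrially encoded genes with 8.27%. The immediate-early and early stress response genes held 4.01% from 85 genes, and the extracellular matrix genes 3.85% from 167. Nuclear genes of oxidative phosphorylation held 2.83%, G proteins with RGS proteins and small GTPases 2.14%, and ion channels with ion pumps 0.965%. The remaining classes held between 0.0882% (MHC and antigen presentation) and 1.74% (RNA processing) each. Named genes in no class held 34.6%, and entries without an established symbol 7.12%.

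**Figure D2:**
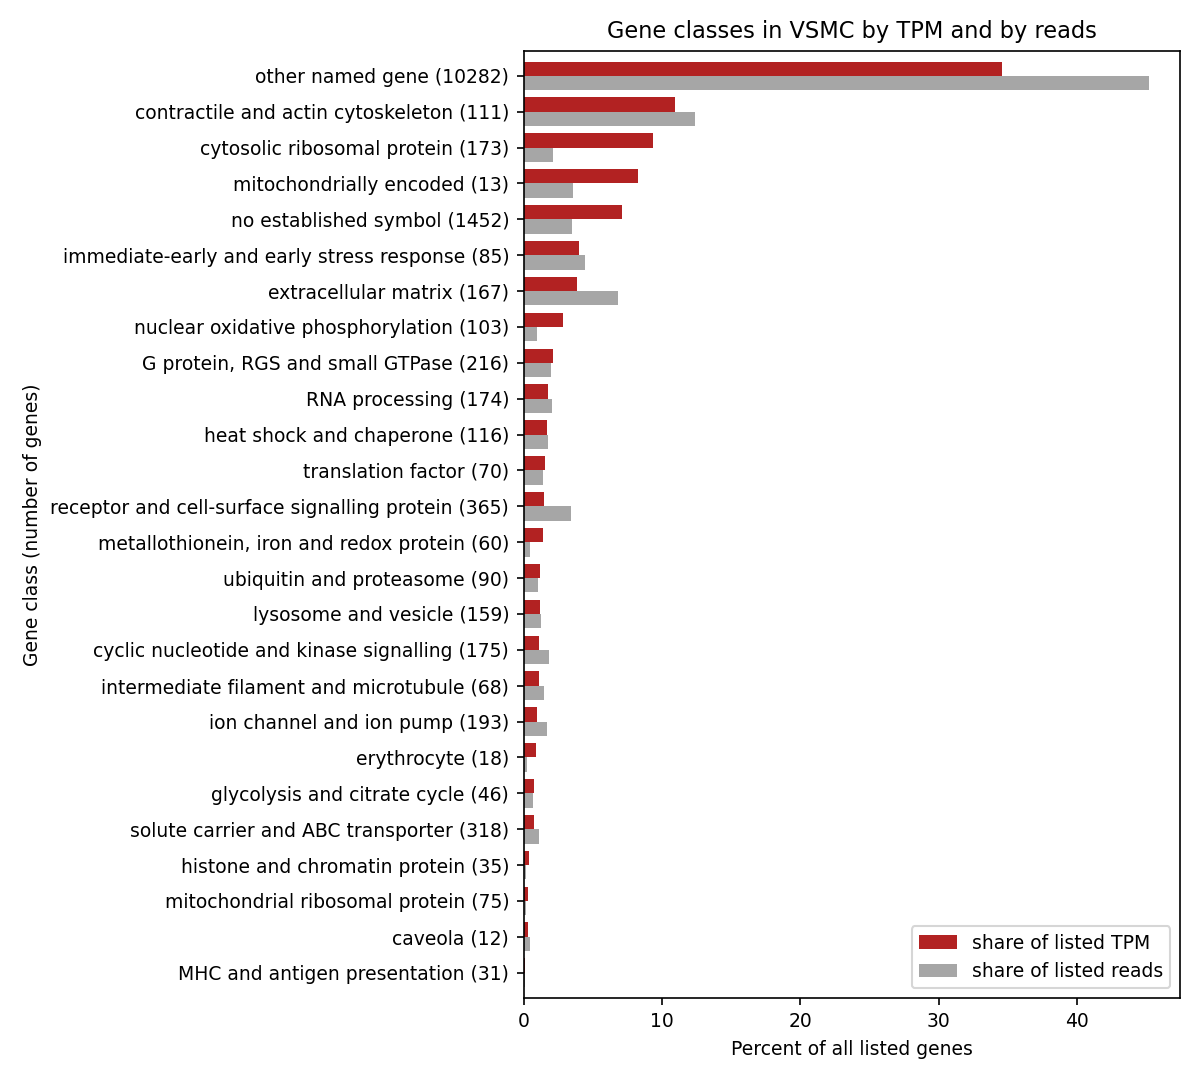
Horizontal bars starting at 0 give, for each gene class with its number of genes, the percent of the listed TPM (red) and the percent of the listed reads (grey) in VSMCs. Contractile and actin cytoskeleton genes are at 10.9% of TPM and 12.4% of reads, whereas cytosolic ribosomal proteins are at 9.33% of TPM and 2.09% of reads.

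The class order depended on the scale. Read totals favour long transcripts and TPM removes that effect, so both were computed. By reads, contractile genes held 12.4% and matrix genes 6.80%, whereas ribosomal proteins held 2.09% and mitochondrially encoded genes 3.53%. At this depth, 61978061 estimated reads per sample over the listed genes, counting error was small: the exact binomial 95% interval for the contractile share of reads was 12.35 to 12.36%. Such intervals cover counting error alone and say nothing of the spread between isolations.

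Among the genes of contraction, the thick and thin filament genes were followed by their regulators. Flna, which encodes the actin crosslinker filamin A, was at 2204 TPM, and Cald1, encoding caldesmon, at 1742 TPM. Mylk, the myosin light chain kinase, was at 815 TPM (rank 192), with the calmodulin gene Calm2 listed in 2 rows at 757 and 661 TPM. On the phosphatase side, the targeting subunits Ppp1r12a and Ppp1r12b were at 446 and 375 TPM and the catalytic subunit Ppp1cb at 309 TPM. Ppp1r14a, which encodes the phosphatase inhibitor CPI-17, exceeded all 3 of these subunits at 708 TPM. It was below Ppp1r12c, a further regulatory subunit gene of the Ppp1r12 family, at 828 TPM (rank 190). Rhoa, a small GTPase that lowers phosphatase activity, was at 595 TPM, whereas the kinases it acts through, Rock1 and Rock2, were at 118 and 105 TPM. Of the 27 listed rows of this contraction machinery, 25 were at or above 10 TPM and 20 at or above 100 TPM. Those levels were reached by 55.0% and 10.5% of all listed genes. The machinery had a median of 375 TPM. Its lowest member was Prkca, encoding protein kinase C alpha, at 3.74 TPM.

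The isoforms within each contractile family were very unequal. Acta2 supplied 73.4% of the TPM of the listed actin genes and Actb, the cytoplasmic beta actin, 23.3%. Actg1, the cytoplasmic gamma actin, was at 467 TPM and Actg2, the gamma actin typical of visceral smooth muscle, at 314 TPM. Acta1, the skeletal muscle actin, was at 1.14 TPM. Actin genes are close in sequence, and a row described as a copy of gamma 1 actin held 1092 TPM, more than Actg1 itself, so the gamma actin share is uncertain. With that copy counted, Acta2 supplied 70.1%.

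Myosin showed the same unevenness. Myh11 stood at 5085 TPM, whereas the non-muscle heavy chains Myh9 and Myh10 were at 17.2 and 7.16 TPM. Among light chains, Myl12a and Myl12b, the non-muscle regulatory chains, were at 388 and 208 TPM against 11235 TPM for Myl9, and the cardiac chains Myl4 and Myl3 were at 1.61 and 0.317 TPM. Tagln held 90.0% of the TPM of the calponin and transgelin genes, and Cnn3 (589 TPM) was listed above Cnn1 (422 TPM) and Cnn2 (294 TPM). Tpm2 was the highest tropomyosin gene, followed by Tpm1 with 42.6% of tropomyosin TPM, Tpm4 with 6.51% and Tpm3 with 0.886%. Of the actinins, the non-muscle forms Actn4 (1382 TPM) and Actn1 (714 TPM) were high, and the striated muscle forms Actn2 and Actn3 were at 0.443 and 0.121 TPM. Among filamins, Flna was at 2204 TPM and the muscle form Flnc at 0.863 TPM.

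**Figure D3:**
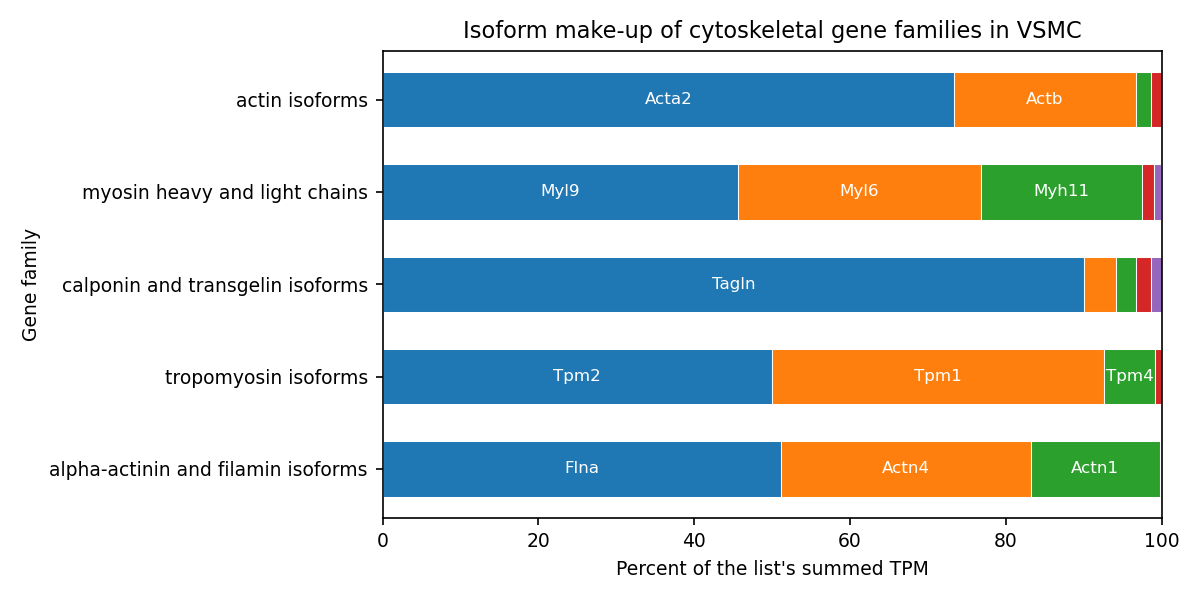
Stacked horizontal bars give the percent of each family's summed TPM (x) held by each listed gene, in order of abundance from left to right, with the larger segments named. Tagln fills 90.0% of its bar and Acta2 73.4%, whereas Tpm1 fills 42.6% of the tropomyosin bar beside a slightly longer Tpm2 segment.

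Serum response factor, encoded by Srf, acts on many contractile and immediate-early genes through the CArG box, a short site of CC, 6 bases that are each A or T, and GG, which reads alike on both strands. The promoter window of 250 bases before the gene start (RefSeq, build GRCr8) could be matched for 10925 listed genes, 350 of them among the 500 most abundant. No promoter entry was matched for Tagln, Myh11, Myl9 and Fos. A CArG box was present in 8 of 88 contractile genes (9.09%, exact binomial 95% interval 4.01 to 17.1%) and in 5 of 67 immediate-early and early stress response genes (7.46%, interval 2.47 to 16.6%). It was present in 1.35% of all listed genes with a promoter, in 1.62% of all genes of the RefSeq table, in 5 of the 350 most abundant genes matched (1.43%) and in 0 of 99 ribosomal protein genes (upper bound of the interval 3.66%). Histone and chromatin genes had the highest share of the other classes, 2 of 30 (6.67%, interval 0.818 to 22.1%), close to the immediate-early share. The contractile genes with a box were Actg1, Cnn2, Ldb3, Fhl1, Svil, Fhl2, Acta1 and Myl3, whose levels ran from 467 TPM for Actg1 to 0.317 TPM for Myl3. The immediate-early genes with a box were Zfp36, Egr1, Klf6, Egr2 and Dusp5, from 4153 TPM for Zfp36 to 3.87 TPM for Dusp5. Genes with a box were thus found at high and at low levels in both classes.

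The 4 windows below were chosen after their matches were seen. Acta2 and Crip1 are shown as the most abundant genes with a form of the box that has 1 mismatch in the 6 middle bases, and Zfp36 and Egr1 as the most abundant genes with a strict box. Rps14 (1812 TPM), Rps27 (1811 TPM), Nr4a1, Pcp4l1 (1469.8 TPM) and Atp5b (1438 TPM), also among the 100 most abundant genes, held 1 mismatched form each and are not shown. Capitals mark the box. Acta2 lies at chr1:241172504-241172753 on the minus strand, Crip1 at chr6:138053618-138053867 on the plus strand (the second of its 2 listed starts), Zfp36 at chr1:92799109-92799358 on the minus strand and Egr1 at chr18:26736828-26737077 on the plus strand, all in GRCr8.
Acta2: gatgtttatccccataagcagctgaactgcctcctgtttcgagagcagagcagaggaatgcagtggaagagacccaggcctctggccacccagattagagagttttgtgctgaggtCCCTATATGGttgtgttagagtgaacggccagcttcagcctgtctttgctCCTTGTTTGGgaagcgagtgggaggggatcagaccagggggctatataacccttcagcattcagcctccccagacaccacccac
Crip1: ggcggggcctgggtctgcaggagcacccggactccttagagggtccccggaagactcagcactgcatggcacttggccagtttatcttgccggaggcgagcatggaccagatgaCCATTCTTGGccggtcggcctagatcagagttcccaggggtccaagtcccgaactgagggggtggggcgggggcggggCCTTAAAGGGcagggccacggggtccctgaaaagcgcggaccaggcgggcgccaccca
Zfp36: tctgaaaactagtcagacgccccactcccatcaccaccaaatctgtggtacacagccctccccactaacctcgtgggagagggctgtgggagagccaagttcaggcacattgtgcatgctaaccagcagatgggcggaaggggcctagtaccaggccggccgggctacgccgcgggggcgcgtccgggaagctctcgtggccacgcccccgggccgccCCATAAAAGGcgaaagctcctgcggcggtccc
Egr1: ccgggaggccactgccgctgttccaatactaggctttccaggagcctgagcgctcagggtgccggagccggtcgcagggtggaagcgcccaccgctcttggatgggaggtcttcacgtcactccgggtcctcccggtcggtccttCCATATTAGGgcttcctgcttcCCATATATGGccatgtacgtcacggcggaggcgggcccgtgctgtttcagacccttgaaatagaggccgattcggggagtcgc

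Acta2 held no strict box in this window but 2 forms with 1 mismatch, beginning 134 and 84 bases before the start. Crip1 likewise held 2 mismatched forms, at 136 and 58 bases. Zfp36, which encodes a protein that destabilises AU-rich messenger RNAs, held 1 strict box 32 bases before the start, and Egr1, a zinc finger transcription factor, held 2 strict boxes at 105 and 83 bases. Cnn1 and Des held neither form in the same window. When 1 mismatch was allowed, the share was 17.0% of contractile genes and 13.4% of immediate-early genes, against 7.96% of all listed genes with a promoter. The exact binomial 95% interval for the immediate-early genes, 6.33 to 24.0%, included that value. The interval for the contractile genes, 9.87 to 26.6%, lay above that 7.96%. Genes of glycolysis and the citrate cycle, 7 of 42 (16.7%, interval 6.97 to 31.4%), were above the immediate-early share and slightly below the contractile share. Translation factors, 8 of 63 (12.7%), were slightly below the immediate-early share. These matches describe the letters in the window and do not show that the factor was bound.

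Of 67 transcription factors known from smooth muscle and mural cells, 58 had a row here, and 52 of these were at or above 0.8 TPM, to be read beside the 83.6% of all listed genes at that level. The median of the 58 was 57.4 TPM, compared with 12.7 TPM for all listed genes. Epas1, the hypoxia-inducible factor 2 alpha, led them at 1277 TPM (rank 105), far above its relative Hif1a at 68.1 TPM. Nrip2 (562 TPM), Tbx2 (454 TPM), Prrx1 (382 TPM) and Klf4 (334 TPM) came next. The Notch targets Heyl (275 TPM), Hes1 (256 TPM) and Hey2 (113 TPM) were higher than Hey1 (11.0 TPM). Srf was at 102 TPM and its smooth muscle coactivator Myocd at 59.6 TPM, with the related Mkl1 at 48.1 TPM. The forkhead genes Foxs1 (233 TPM), Foxc1 (173 TPM) and Foxc2 (97.3 TPM) were in the upper part of the profile, whereas Gata6 (0.636 TPM) and Gata2 (0.0726 TPM), the lowest of the list, were near its bottom. Foxf2 and Foxl2, forkhead genes of the same list, had no row.

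Immediate-early genes, whose transcripts appear within minutes of a stimulus, were among the most abundant transcripts of the cells. After Fos, Zfp36 and Junb (2705 TPM), the highest were Gadd45g (2271 TPM), Nr4a1 (1700.4 TPM), Gadd45b (1691 TPM) and Egr1 (1660.3 TPM). Jun was at 1474 TPM, Atf4 at 1254 TPM, Dusp1 at 1064 TPM and Fosb at 1022 TPM. Of the 85 listed genes of this class, 47 were at or above 100 TPM and 30 were among the 500 most abundant, and 3 genes, Fos, Zfp36 and Junb, held 28.2% of the class total. Of all listed genes, 10.5% were at or above 100 TPM. The inducible heat shock genes Hspa1a (1816 TPM) and Hspa1b (1234 TPM) and the small heat shock gene Hspb1 (1918 TPM) were high as well. Per the study's methods, the cells were digested with enzymes and sorted before lysis. Levels in undisturbed tissue were not measured, and whether these transcripts rose during the isolation was not tested.

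Calcium handling was led by the store. Atp2a2, encoding the SERCA2 pump that refills the store, was at 1089 TPM, and its inhibitor phospholamban, Pln, at 387 TPM. Calr, the calcium-binding protein calreticulin, was at 394 TPM. Mrvi1, encoding the partner of the inositol trisphosphate receptor that cGMP-dependent kinase acts on, was at 331 TPM, and the receptor Itpr1 at 140.2 TPM. The ryanodine receptors were far lower, with Ryr2 at 1.93 TPM, Ryr3 at 0.111 TPM and Ryr1, the lowest of the list, at 0.0764 TPM. At the plasma membrane, the calcium pump Atp2b4 was at 245 TPM and the sodium-calcium exchanger Slc8a1 at 135 TPM. Of voltage-gated calcium channels, the T-type subunit Cacna1h (146 TPM) was listed above the L-type subunit Cacna1c (63.3 TPM) and above Cacna1g (18.5 TPM). Store-operated entry was represented by Stim1 (126 TPM), Orai3 (22.8 TPM) and Orai1 (14.7 TPM), and the cation channels by Pkd2 (39.6 TPM), Trpm4 (17.7 TPM) and Trpc6 (4.28 TPM). In all, 28 of 41 listed genes of calcium store and entry were at or above 10 TPM, a level that 55.0% of all listed genes reached. The list's median was 22.8 TPM.

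Channels that set the membrane potential had a median of 13.3 TPM over 41 listed genes, close to that of all genes, and a few high members. Of the 53 genes in this list, 12 had no row. Kcnmb1, the smooth muscle beta 1 subunit of the calcium-activated BK potassium channel, was at 414 TPM, whereas the pore subunit Kcnma1 was at 19.0 TPM. Clic4 (340 TPM) followed, then the voltage-gated potassium channel Kcna5 (146 TPM), the accessory subunit Kcne4 (133 TPM) and the scramblase Ano6 (123 TPM). The calcium-activated chloride channel Ano1 was at 112 TPM. Among inward rectifiers, Kcnj12 (54.4 TPM) and Kcnj11 (34.4 TPM) were above Kcnj8 (17.2 TPM) and Kcnj2 (3.76 TPM). The sulfonylurea receptors Abcc8 and Abcc9, partners of Kcnj11 and Kcnj8 in ATP-sensitive potassium channels, were at 23.8 and 12.4 TPM. The lowest member was Kcnc1 at 0.0108 TPM.

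Of 81 receptor genes for vasoactive signals, 26 had no row. A row required a read in each of the 6 samples of the series, and members were matched to rows by symbol. A missing row thus does not show that a transcript was absent from VSMCs. The 55 listed genes were low as a list, with a median of 4.77 TPM, and 18 of these were under 0.8 TPM. Of all listed genes, 83.6% were at or above 0.8 TPM and 10.5% at or above 100 TPM. The 5 at or above 100 TPM were Npy1r (346 TPM), the receptor of the constrictor neuropeptide Y, S1pr3 (180.1 TPM), a sphingosine 1-phosphate receptor, Ednra (146 TPM), the endothelin A receptor, P2rx1 (116 TPM), the ATP-gated channel of sympathetic transmission, and Avpr1a (112 TPM), the vasopressin V1a receptor. Next came receptors tied to relaxation, with Crhr2 at 90.9 TPM, the prostacyclin receptor Ptgir at 88.6 TPM and the adenosine receptor Adora2a at 88.3 TPM. Calcrl and Ramp1, which together form the CGRP receptor, were at 27.3 and 22.5 TPM. Adrenergic receptors were few and low: Adra1b was at 5.37 TPM, Adra2a at 4.77 TPM, Adrb1 at 1.26 TPM, Adra1a at 0.554 TPM and Adra1d at 0.478 TPM. The angiotensin receptor Agtr1a was at 1.46 TPM, the endothelin B receptor Ednrb at 0.286 TPM, and the serotonin receptors Htr1b and Htr2a at 2.21 and 0.0442 TPM, Htr2a being the lowest of the list.

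Receptors for growth factors and Notch ligands were led by Notch3 at 1198 TPM (rank 113), the Notch receptor of arterial smooth muscle. Notch1 was at 65.5 TPM, Notch2 at 27.7 TPM and Notch4, known from endothelium, at 1.78 TPM. Pdgfrb, the receptor that recruits mural cells, was at 614 TPM, whereas Pdgfra, known from fibroblasts and glial precursors, was at 0.575 TPM. The neurotrophin 3 receptor Ntrk3 (353 TPM), Axl (352 TPM) and Gprc5c (197 TPM) followed. The lowest of the 62 listed genes was Erbb3 at 0.0273 TPM.

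Of 99 genes for secreted signals, 16 had no row. The median was 5.06 TPM over the 83 listed rows, below that of all genes. Of these, 17 were under 0.8 TPM and 11 at or above 100 TPM, a level that 10.5% of all listed genes reached. Wnt5b was at 394 TPM, the chemerin gene Rarres2 at 367 TPM, Pdgfa at 363 TPM, the netrin Ntn4 at 362 TPM and Fstl1 at 306 TPM. Angiogenic factors split, with Angpt2 at 239.6 TPM and Pgf at 193 TPM against Vegfa at 11.9 TPM and Angpt1 at 16.5 TPM. Of the transforming growth factors, Tgfb3 (209 TPM) was above Tgfb1 (65.5 TPM) and Tgfb2 (36.1 TPM). The Notch ligand Jag1 was at 64.6 TPM and Dll4, known from arterial endothelium, at 0.279 TPM. Sema3c was the lowest member at 0.0109 TPM.

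The matrix genes combined basement membrane and elastic components. Sparcl1 (5398 TPM), Mgp (4440 TPM) and Sparc (2549 TPM) were the highest of 63 listed genes. Col4a1 (1346 TPM) and Col4a2 (1295 TPM), the chains of basement membrane collagen IV, were close to each other, and Lamb2 (1178 TPM), Lamc1 (575 TPM) and Lama5 (315 TPM) were the leading laminin chains. Lamb1 was at 11.1 TPM and Lama1 at 0.255 TPM. Elastin, Eln, was at 621 TPM, and Lox, the enzyme that crosslinks it, at 414 TPM, whereas the microfibril genes Fbn1 (21.2 TPM) and Fbn2 (0.0849 TPM, the lowest of the list) were low. Fibrillar collagens were present at intermediate levels, with Col3a1 at 299.7 TPM and Col1a1 at 114 TPM, and fibronectin, Fn1, was at 8.12 TPM. In total 31 of the 63 genes were at or above 100 TPM, a share of the list to be read beside the 10.5% of all listed genes at that level.

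**Figure D4:**
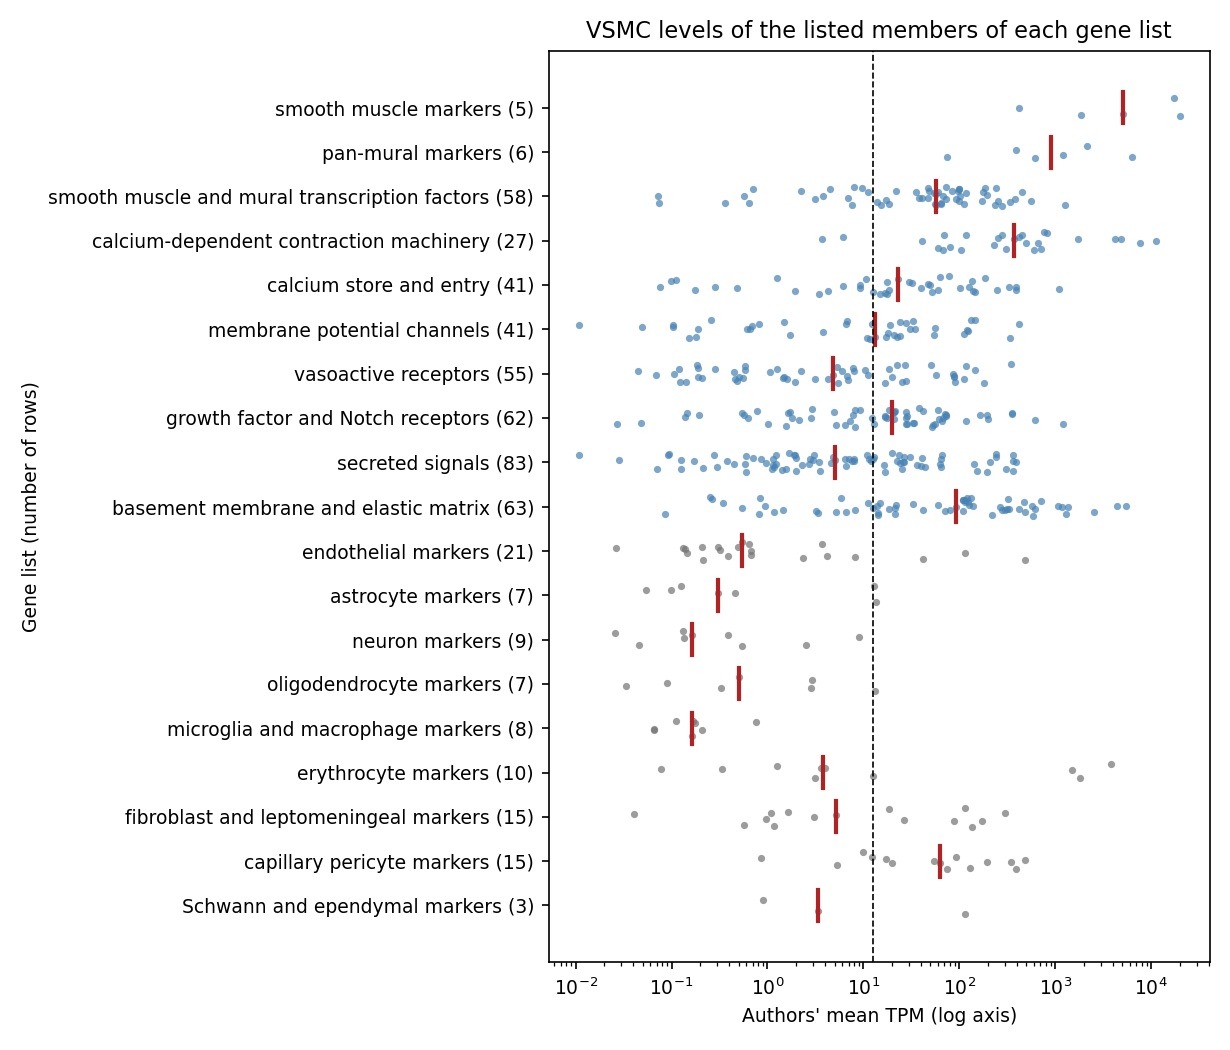
Each point is 1 listed row placed by the authors' mean TPM in VSMCs (x, log axis), with one line per gene list and its number of rows. Red bars are list medians and the dashed line is the median of all listed genes, 12.7 TPM. Blue lists describe smooth muscle function and grey lists mark other cell types; medians run from 5085 TPM for the smooth muscle markers to 0.164 TPM for the neuron markers.

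Markers of cells other than mural cells were mostly near the bottom of the profile. Of all listed genes, 83.6% were at or above 0.8 TPM. That limit is the paper's own, set by its authors above the levels of selected neuron, glial and endothelial markers in these same VSMCs. Counts of such markers under it are therefore no independent measure of purity. All 8 listed microglia and macrophage markers were under 0.8 TPM, the highest being Lyz2 at 0.768 TPM. Of 9 neuron markers, 7 were under 0.8 TPM, with Nefm at 9.04 TPM the highest, and of 7 astrocyte markers 5 were, with Gfap at 0.098 TPM and Aldoc at 13.6 TPM. The summed level was 1.73 TPM for the microglia and macrophage list, 13.0 TPM for the neuron list, 27.6 TPM for the astrocyte list and 19.8 TPM for the oligodendrocyte list, where Cnp (13.1 TPM) was the highest. In a bulk sample, fewer cells of a type and less RNA per cell cannot be told apart.

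Endothelial markers had a median of 0.546 TPM over 21 listed genes, 14 of which were under 0.8 TPM. The authors set that limit with endothelial markers of these samples in view. Cldn5, the tight junction protein of brain endothelium, was at 0.643 TPM, which rested on 96 reads over the 3 samples (exact Poisson 95% interval 77.8 to 117). Vwf was at 0.678 TPM and Cdh5, encoding VE-cadherin, at 0.305 TPM. The 7 at or above 0.8 TPM were led by Esam (487 TPM), an adhesion protein that mural cells also carry. Slc2a1 (115 TPM), the glucose transporter of the blood-brain barrier, and Eng (42.2 TPM) followed. The others were Flt1 (8.196 TPM), Tal1 (4.15 TPM), Icam2 (3.74 TPM) and Erg (2.33 TPM). The list's summed level was 667 TPM, of which Esam alone gave 73.0%.

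Haemoglobin was the exception among non-vascular transcripts. Hba-a1 was at 3838 TPM (rank 26), Hba-a2 at 1809.5 TPM and Hbb at 1478 TPM, and the 18 genes of the erythrocyte class held 0.877% of the listed TPM. Of these 18, 5 were among the 500 most abundant genes, including LOC103694857, described as haemoglobin subunit beta-2, at 1074 TPM. The other listed erythrocyte markers were much lower, with Alas2 the highest at 12.7 TPM and Slc4a1 at 1.25 TPM. The part of this transcript pool in the levels of other genes was not tested.

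Of the markers of capillary pericytes, all 15 were at or above 0.8 TPM and 12 at or above 10 TPM, with a median of 63.4 TPM. Of all listed genes, 83.6% and 55.0% reached these levels. Vtn was at 484 TPM, Cspg4, encoding NG2, at 388 TPM, Ndufa4l2 at 343 TPM, Cd248 at 194 TPM and Anpep at 74.7 TPM. Kcnj8 and Abcc9, often used to tell brain pericytes from smooth muscle, were at 17.2 and 12.4 TPM, and the lowest member was Ggt1 at 0.855 TPM. Of the 6 markers shared by mural cells in general, Rgs5, Mcam (2120.2 TPM), Notch3, Pdgfrb and Cspg4 were at or above 100 TPM and Anpep was not. Several of these genes are also known from smooth muscle, and whether they came from VSMCs or from pericytes in the sorted fraction was not tested. Fibroblast and leptomeningeal markers were uneven, with 13 of 15 rows at or above 0.8 TPM, close to the 83.6% of all listed genes. Their median was 5.19 TPM. Beside Col3a1 and Foxc1, Ogn was listed in 2 rows at 135 and 87.4 TPM, Dcn was at 18.7 TPM and Lum at 5.19 TPM. The 3 listed Schwann cell and ependymal markers were Pmp22 at 114 TPM, Prx at 3.38 TPM and Ccdc153 at 0.897 TPM.

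The leading genes of the other classes were mostly housekeeping genes. Translation factors were headed by Eef1a1 and Tpt1 (2434 TPM), chaperones by Ppia (2188 TPM), encoding cyclophilin A, and glycolysis by Gapdh (1177 TPM) and Aldoa (931 TPM). Iron storage and redox genes were led by Fth1, the ferritin heavy chain, at 2054 TPM, the metallothionein Mt1 at 1990.2 TPM and the thioredoxin Txn1 at 1937 TPM. Of intermediate filament and microtubule genes, Vim and Des were followed by Tuba1c at 1068 TPM. At the cell surface, the integrin chains Itgb1 (861 TPM) and Itga7 (463 TPM), which together form a laminin receptor of muscle, came after Mcam and Notch3. Of the 31 listed genes of MHC and antigen presentation, B2m was the highest at 452 TPM and the median was 5.77 TPM. The most abundant named genes in no class after Crip1 were Cst3 (2283 TPM), encoding the protease inhibitor cystatin C, and Sncg (2151 TPM).

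Respiratory transcripts occupied a large part of the upper profile. Mt-atp6 was at 15731 TPM, Mt-co1 at 12478 TPM, Mt-atp8 at 11412 TPM, Mt-cox3 at 10652 TPM, Mt-cyb at 7099 TPM and Mt-co2 at 6609 TPM. Mt-nd1 (5119 TPM) and Mt-nd2 (5113 TPM) were the highest subunits of complex I encoded in the mitochondrion, and Mt-nd5 (759 TPM) was the lowest of the 13. Mt-atp8 shares its transcript with Mt-atp6, and its effective length, the number of positions a fragment can start from, was 40.7 bases. By reads it was at rank 474, against rank 12 for Mt-atp6.

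Over the whole table the rank correlation between TPM and effective length was weak, a Spearman coefficient of -0.15 across 14607 genes, which are not independent replicates. The median effective length was 582 bases for the 100 most abundant genes and 1946 bases for all genes. Of the 500 most abundant genes, 113 (22.6%) had an effective length under 300 bases, compared with 4.33% of all genes, and 26 were under 100 bases. Those 113 genes held 13.1% of the listed TPM but 1.40% of the reads, 40 of them encoded ribosomal proteins, and the highest were Mt-atp8, Crip1 and Rps29.

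Ranked by reads, 274 of the 500 most abundant genes stayed in the top 500. By reads the order began with Myh11 (1306325 reads per sample), Acta2 (831389), Flna (733479), Tagln (682459) and Mt-co1 (679559), and went on with Sparcl1, Myl9, Col4a1, Notch3 and Adamts1. Of the 226 genes that left, 71 encoded ribosomal proteins and 30 encoded nuclear subunits of oxidative phosphorylation, and their median effective length was 313 bases. The 226 that entered had a median of 4032 bases and were led by Srrm2, Sptan1, Fry and Utrn. Of the 41 contractile genes in the TPM order, 34 were in both orders, and of the 25 matrix genes all 25 were.

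**Figure D5:**
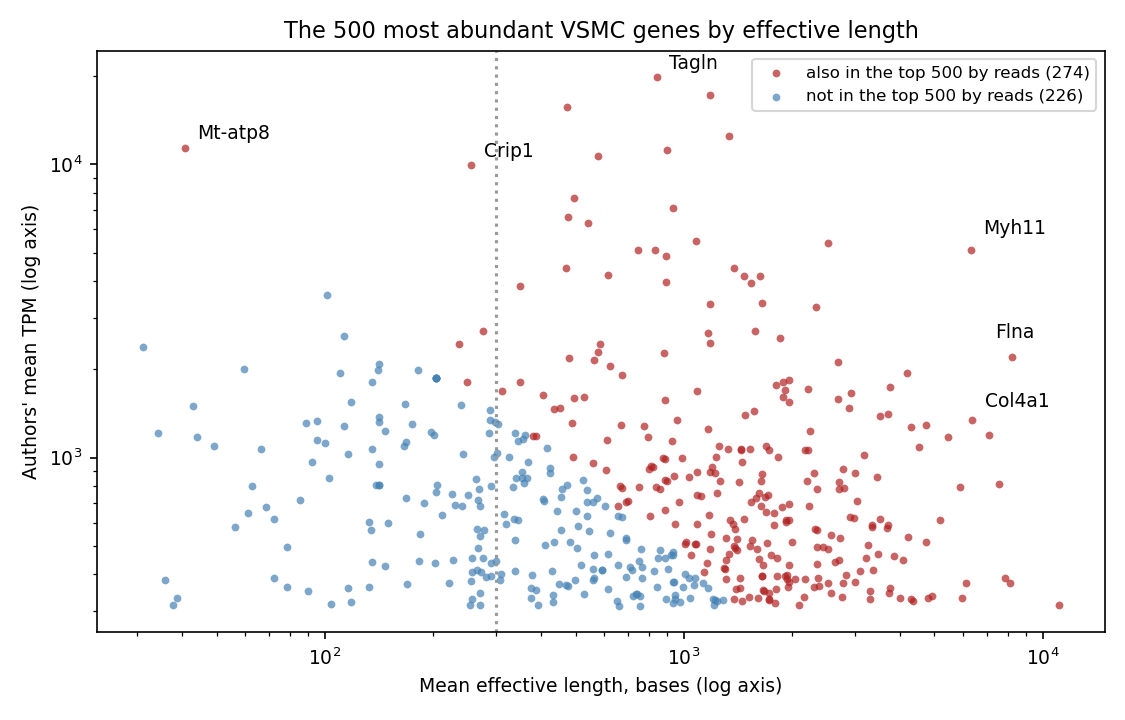
The 500 most abundant VSMC genes are placed by mean effective length (x, log axis) and by the authors' mean TPM (y, log axis), with the dotted line at 300 bases. Red points (274) are also among the 500 genes with most reads and blue points (226) are not; Myh11, Flna and Col4a1 lie at the long end and Mt-atp8 and Crip1 at the short end.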

How the data were processed

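RNA-Seq of 3 VSMC samples was used. Per the study's methods, the authors trimmed reads, estimated abundances with Salmon 0.8.0 on the Ensembl transcripts of Rnor_6.0 (builds and tools also named in the submitters' processing notes), summed them per gene and kept genes with a read in each of the 6 samples. The deposited TPM values are the authors' means over the VSMC samples. The deposited counts are the authors' mean of estimated counts, read here as means per sequencing run, since 69.8% of values multiplied by 12 came within 0.01 of a whole number, and multiplied by 4 to give reads per sample. The deposited effective lengths are the authors' means. The table also holds columns for the other cell type and the authors' fold changes and p-values, which were not used.

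Genes were ranked by TPM, shares were taken of the summed TPM of the listed genes (998098 TPM), and classes were assigned by symbol and description. Intervals were computed with scipy 1.17.1 under Python 3.11.15. RefSeq promoters (GRCr8) were matched by Ensembl identifier, Entrez identifier or symbol, for 11009 of 14607 rows; their positions belong to that build, not to the one used for the reads. The ranking, share and motif steps were tested on simulated data. The genes named were the 5 markers, the 30 highest by TPM, the 10 highest by reads, the 3 highest of a class, the 5 highest and the lowest of a list, and members with a well-known role. Some genes of these sets are not reported here. The lists, classes and members were chosen with earlier results of these data known. Alternatives were reads in place of TPM, other top counts and TPM limits, leaving out mitochondrial or short genes, and other motif windows.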

Additional observations from a re-analysis of the deposited data

How the results depend on the processing

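The 58.8% of listed TPM in the 500 most abundant genes became 51.3% when genes were ranked and summed in reads, 58.84% with TPM rebuilt from reads and length, 55.5% without mitochondrially encoded genes, 57.9% without genes of effective length under 300 bases, 47.8% for the top 250 and 69.5% for the top 1000. The top 500 by TPM shared 274 genes with the ranking by reads and 498 with rebuilt TPM. The contractile share of 10.9% became 12.4% of reads, 17.4% within the top 500 and 11.9% without mitochondrially encoded genes. The ribosomal protein share of 9.33% became 2.09% of reads, 14.7% within the top 500 and 7.80% by the symbol rule alone. By reads, the matrix share of 3.85% became 6.80% and the immediate-early share of 4.01% became 4.47%. The smooth muscle actin share of 73.4% became 75.2% of reads and, with the gamma 1 actin copy counted (chosen after seeing the data), 70.1%. The 1.43% of top 500 promoters with a CArG box stayed at 1.43% in the window of 300 bases and became 8.29% with 1 mismatch allowed, also chosen after seeing the data. The number of genes at or above 0.8 TPM, 12218, was within 1.5 times of that count for all 4 other limits, from 11110 to 12745. No paired analysis was possible because the values are means over samples and no test was made, and for the same reason no sample was left out in turn. Depth limited only genes with few reads, the lowest resting on 3 reads over the 3 samples.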

Other observations

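Some further signalling and transport genes, chosen after their values were seen, are given here as single values. Their classes as a whole had medians of 23.8 TPM (cyclic nucleotide and kinase signalling) and 2.21 TPM (ion channels and ion pumps, with 23 of 193 genes at or above 100 TPM). The level of 100 TPM was reached by 10.5% of all listed genes. The beta 1 and alpha 1 subunits of soluble guanylyl cyclase, the nitric oxide receptor, were at 244 TPM (Gucy1b3) and 124 TPM (Gucy1a3). The alpha 2 subunit Gucy1a2 was at 59.8 TPM. Prkg1, encoding a cGMP-dependent kinase, had no row under that symbol, and the paper reports that these VSMCs did not express Prkg1 or Prkg2. The phosphodiesterases Pde3a, Pde5a and Pde1a were at 455, 103 and 76.7 TPM. The 3 adenylyl cyclases named here were in the same range, Adcy3 at 279 TPM, Adcy5 at 229 TPM and Adcy6 at 216 TPM. The gap junction genes Gja4 (499.5 TPM), encoding connexin 37, and Gjc1 (492 TPM), encoding connexin 45, were at nearly the same level. Of sodium pump subunits, Atp1b1 (869 TPM) and Atp1b2 (789 TPM) were listed with the regulator Fxyd1 at 1008 TPM. The caveola genes Ptrf (888 TPM), Prkcdbp (507 TPM) and Cav1 (497 TPM) stood in the top 500 together.

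Some entries a reader would not look for in this cell type stood high. Slc6a17, a neutral amino acid transporter known from neurons, was the most abundant solute carrier at 682 TPM (rank 245). Sncg, encoding gamma-synuclein, was at 2151 TPM and the metallothionein Mt3 at 805 TPM. Only 5 entries with a symbol beginning in Olr were listed, and 2 of them, the olfactory receptor genes Olr59 (157 TPM) and Olr63 (96.0 TPM), were well above the median gene. The 5 were picked by symbol alone, which does not show that each is an olfactory receptor.

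Part of the order rests on how reads were divided between near-identical entries. A set of 5 unnamed entries had the same effective length of 204 bases and 1875.6 TPM each, and their sum of 9378 TPM would stand at rank 9. In all, 56 sets of entries with equal length and TPM within 0.1% were found, 13 of them with a summed level of at least 100 TPM. The entry described as similar to heat shock protein 8 (LOC680121) was at 1607 TPM, whereas Hspa8 itself was at 346 TPM, and their sum would move the gene from rank 450 to rank 51. For Eef1a1, the entry LOC100360413 held 24.1% of the sum of both.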
